A study of Mus musculus with 12 samples.

Results

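The opening of cellular reprogramming was described by setting the mRNA of mouse embryonic fibroblasts (MEFs) on day 3 after induction (D3) against that of the starting fibroblasts on day 0 (D0). The rule took every gene with at least 1 FPKM in D0 or in D3. FPKM is the number of sequenced fragments per kilobase of transcript, scaled to the number of mapped fragments of the library. This gave 11922 genes of the 24098 in the deposited table (49.5%). Differences are D3 minus D0 on the log2(FPKM + 1) scale throughout, so 1 stands for 2-fold and 2 for 4-fold, and the added 1 makes the fold of low genes look smaller than it is.

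The study sequenced 12 libraries, 1 for each of 12 conditions: D0, D3, the sorted fractions of days 6 and 9 (Thy-1-, T-, and Thy-1+, T+) and of days 12 and 16 (SSEA-1+, S+, and SSEA-1-, S-), induced pluripotent stem cells (iPSCs) and mouse embryonic stem cells (mESCs). All MEFs carried EGFP behind an internal ribosome entry site at the Oct4 gene, and D0 was labelled as wild type. The protocol text is the same for all samples and does not say which medium or infection each one had. It gives DMEM with fetal bovine serum for MEFs. For reprogramming it gives infection with pMXs retroviruses for Sox2, Klf4, Oct4 and c-Myc (OSKM) in the presence of polybrene and then FF medium, which contains Knockout Serum Replacement, LIF, ascorbic acid, bFGF, CHIR99021 and N-2 in place of fetal serum. The methods of the study also name mESC medium, which holds fetal serum and LIF, and KOSR medium for reprogramming. Which of these media D3 had is not stated. If D0 was uninfected and in the MEF medium and D3 in a reprogramming medium, as the protocol text reads, the factors, the viral infection, the change of medium and the 3 days of culture cannot be told apart. Neither library was sorted, so infected and uninfected cells were measured together, and in such bulk RNA fewer cells of a type and less RNA per cell cannot be told apart. The number of embryos behind each library is not given in the sources used here. With 1 library a side no difference has a replicate check, and sizes are given with no test.

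Fibroblasts make and remodel the extracellular matrix: they secrete collagens and other matrix proteins, the enzymes that fold and crosslink them, and the metalloproteinases that cut them. Conversion to pluripotent cells begins with the loss of this programme and with a mesenchymal-to-epithelial transition, in which junction and keratin genes come on. MYC, 1 of the 4 factors, is known to drive ribosome production and cell growth, and the pluripotency network proper is known to come on late.

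Of the 11922 genes, 816 were higher in D3 by 2-fold or more (6.84%) and 1229 lower by as much (10.3%). At 4-fold or more, 216 were higher (1.81%) and 350 lower (2.94%). The median difference over all genes was -0.08, with 5360 genes above 0 and 6562 below. The split of the 2-fold genes depended on scaling. It was 39.9% higher as deposited, 48.8% (1015 higher and 1066 lower) when the libraries were scaled by the median of their ratios and 57.5% (1249 higher and 925 lower) when they were scaled to the same total FPKM, which was 648264 in D0 and 538009 in D3. These scalings moved the median of all genes by 0.13 and 0.25. Shares of 6.84% higher and 10.3% lower are those of all kept genes as deposited, beside which the counts of the lists can be read. They are not the same for every gene set, because they move with scaling and, as given below, with GC content. Depth in fragments is unknown. From the smallest steps between low values, over 2743 genes under 0.5 FPKM in both libraries, D3 was estimated to be sequenced 1.49 times as deeply as D0.

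**Figure D1:**
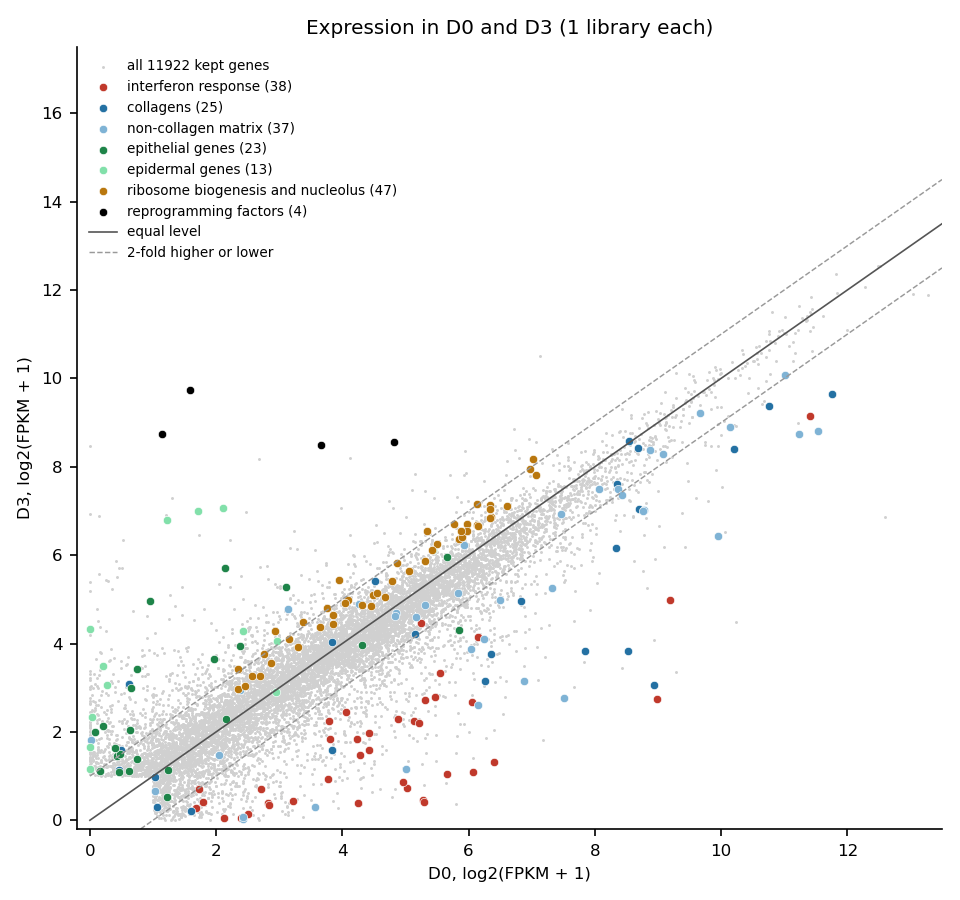
Level of each kept gene in D0 (horizontal axis) and D3 (vertical axis), both as log2(FPKM + 1), with 1 library per axis. Grey points are all 11922 genes, coloured points the members of 7 lists with the number plotted, the solid line equal levels and the dashed lines 2-fold differences. The 4 factor genes and 11 of the 13 epidermal genes lie above the upper dashed line, the 38 interferon response genes below the line of equal level, and the 47 ribosome biogenesis genes in a band just above it.

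The induced factors were examined first. Pou5f1, which encodes Oct4 (chromosome 17, 35642982 to 35647721 of mm9, the build of the deposited table), was at 1.99 FPKM in D0 and 858 FPKM in D3, a difference of 8.17. Sox2 was at 1.21 and 427 FPKM (7.59). Klf4 was at 11.7 and 359 FPKM (4.83). Myc was at 27.3 and 378 FPKM (3.74), so that it had both the highest starting level of the 4 and the smallest difference. In D3 the 4 genes lay between 359 and 858 FPKM, and together they made up 0.00651% of the summed FPKM of D0 and 0.376% of that of D3. Fragments of the retroviral coding sequences are counted with those of the endogenous genes. All 4 genes were thus higher in the library labelled as induced.

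The largest list-wide difference downwards was that of the interferon response. Interferons bind surface receptors whose signals act on genes with an interferon-stimulated response element (ISRE), and the products block viruses at many steps. All 38 members that passed the filter, of 40 listed, were lower in D3, 37 of them at least 2-fold and 31 at least 4-fold, with a median of -2.60. Isg15, a ubiquitin-like protein that is attached to other proteins (chromosome 4, 155573533 to 155574927, minus strand), had the largest negative difference of all 11922 genes, -6.25. It was at 504 FPKM in D0 and 5.66 FPKM in D3, and the deposited intervals of both values, 25.9 to 983 and 0 to 16.3 FPKM, did not overlap. Usp18, which removes ISG15 again, was at 66.3 and 1.14 FPKM (-4.98), also with intervals apart. Irf7, a transcription factor that amplifies the response, was at 83.4 and 1.51 FPKM (-5.07). Oasl2, an oligoadenylate synthetase-like protein, was at 37.8 and 0.37 FPKM (-4.83). Rtp4, another interferon-induced gene, was at 38.0 and 0.324 FPKM (-4.88). The members with the highest levels were lower as well: Ifitm3, which blocks virus entry at membranes, was at 2716 FPKM in D0 and 569 FPKM in D3 (-2.25), and Bst2, which tethers budding virus to the cell, was at 582 and 30.6 FPKM (-4.20). The smallest difference was that of Trim25, at 36.8 and 21.1 FPKM (-0.77).

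The sequence before the start of these genes was looked at for the ISRE, spelled as GAAA, any 2 bases and GAAA again, on either strand, overlapping matches included. Among the 32851 RefSeq promoters of the GRCm38.p6 mouse build, 978 (2.98%) held a match in the 250 bases before the start. Of the 38 interferon genes, 29 had an entry by symbol (76.3%), which is too few for a share over the list, and none is given. Fewer of the 29 held a match than held none. The 6 members with the largest differences among those with a match are shown as examples of the element. Each is given as 60 bases in the direction of the gene, with the matches in capitals. The stretches are chr4:156200856-156200915 (Isg15, minus), chr19:34583365-34583424 (Ifit3, plus), chr5:92349068-92349127 (Cxcl10, minus), chr8:71537565-71537624 (Bst2, minus), chr11:58199496-58199555 (Igtp, plus) and chr19:34640769-34640828 (Ifit1, plus) of GRCm38.p6.
Isg15: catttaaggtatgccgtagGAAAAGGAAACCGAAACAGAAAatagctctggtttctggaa
Ifit3: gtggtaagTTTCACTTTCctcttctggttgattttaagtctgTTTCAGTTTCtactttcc
Cxcl10: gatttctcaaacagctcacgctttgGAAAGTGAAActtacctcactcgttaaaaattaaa
Bst2: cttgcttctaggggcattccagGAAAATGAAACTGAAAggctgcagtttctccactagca
Igtp: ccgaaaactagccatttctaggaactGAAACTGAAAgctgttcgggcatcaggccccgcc
Ifit1: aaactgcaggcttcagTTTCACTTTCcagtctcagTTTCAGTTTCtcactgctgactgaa
Isg15 holds 3 overlapping matches, which begin 78 bases before its start. Ifit3, Bst2 and Ifit1 hold 2 each, and Cxcl10 and Igtp hold 1. A match is a description of the letters and not a measured binding site. In expression, Ifit3 was at 49.2 FPKM in D0 and 1.06 FPKM in D3 (-4.61), Cxcl10 at 31.7 and 0.648 FPKM (-4.31), Igtp at 30.0 and 0.836 FPKM (-4.08) and Ifit1 at 18.0 and 0.321 FPKM (-3.85).

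D3 stood low against later libraries too. Over the 10 libraries of days 0 to 16, D3 held the lowest value for 35 of the 38 interferon genes, against 9.39% of all kept genes. The median level of the list on the log2(FPKM + 1) scale was 4.65 in D0, 1.4 in D3, 2.32 in D6T-, 3.32 in D6T+, 4.91 in D12S- and 5.01 in D16S-. Isg15 was at 11.1 FPKM in D6T-, 66.1 in D6T+, 64.9 in D9T-, 206 in D9T+, 91.0 in D12S+, 178 in D12S-, 43.5 in D16S+ and 244 in D16S-, with 12.8 in iPSCs and 0.0744 in mESCs. The D3 value was thus below each of the other 11 but that of mESCs.

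Genes of antigen processing, which cut proteins and load the peptides on MHC class I molecules, were lower in the same comparison. All 19 members lay below 0, with a median of -1.24, and 10 of the 19 were at least 2-fold lower. The smallest of these differences, -0.15 for H2-Q6, was less than the 0.25 by which scaling to the same total moved the median of all genes. Psmb8, an inducible subunit of the immunoproteasome, was at 37.3 FPKM in D0 and 1.4 FPKM in D3 (-3.99). H2-T23, a nonclassical class I gene, was at 24.9 and 2.00 FPKM (-3.11). B2m, the light chain of all class I molecules, was at 289 and 151 FPKM (-0.93). H2 genes have near-identical copies, and reads with more than 1 locus had been removed, so their levels are uncertain.

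Of the inflammatory cytokines and chemokines, 10 of 23 kept genes (30 listed) were at least 2-fold lower and 2 at least 2-fold higher, with a median of -0.82. Among the chemokines were Ccl11, which attracts eosinophils, at 54.6 and 0.30 FPKM (-5.42), Ccl8 at 202 and 7.14 FPKM (-4.64) and Ccl2, which attracts monocytes, at 882 and 149 FPKM (-2.56). Saa3, an acute-phase protein, was at 143 and 2.53 FPKM (-5.36). Ptgs2, the inducible enzyme of prostaglandin synthesis, stood on the other side, at 22.4 FPKM in D0 and 78.2 FPKM in D3 (1.76). It was joined by Tnfaip3, an inhibitor of NF-kappaB signalling, at 1.93 and 6.38 FPKM (1.33).

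Markers of leukocytes were examined beside these genes. Of 24 markers, 10 passed the filter, with 5 at least 2-fold lower and 3 at least 2-fold higher. The marker that defines leukocytes, Ptprc (CD45), was at 0.0273 FPKM in D0 and 0.0244 FPKM in D3, and Emr1 and Cd52 were listed at 0 in D3 after 0.192 and 0.667 FPKM in D0. The summed FPKM of the kept markers was 1239 in D0 and 54.8 in D3, and the D0 sum was nearly all Mcpt8, a basophil protease gene at 1201 and 21.5 FPKM (-5.74). The mast cell genes Kit and Cma1 were at 0.0364 and 0.498 FPKM in D0 and at 0.0917 and 0.0665 FPKM in D3, and Cpa3 was listed at 0 in both libraries. Lyz2, lysozyme of myeloid cells, was at 9.47 and 0.475 FPKM (-2.83), and Tyrobp, a myeloid signalling adaptor, at 3.38 and 0.149 FPKM (-1.93). Laptm5 was at 1.37 and 5.66 FPKM (1.49). The part of these cells in the interferon and cytokine differences was not tested.

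Next, the fibroblast programme was followed. Of the 15 kept fibroblast markers (16 listed), 12 were at least 2-fold lower in D3 and 0 at least 2-fold higher, with a median of -2.11. Pdgfra, a receptor for platelet-derived growth factor, was at 38.0 FPKM in D0 and 0.74 FPKM in D3 (-4.49), with intervals that did not overlap. Dcn, the proteoglycan decorin, was at 117 and 7.85 FPKM (-3.73). Twist2, a mesenchymal transcription factor, was at 435 and 48.9 FPKM (-3.13). Thy1, the surface marker used for sorting from day 6 onwards, was at 669 and 123 FPKM (-2.44). Vim, the intermediate filament protein vimentin, was the exception, at 3641 FPKM in D0 and 3905 FPKM in D3 (0.10), and S100a4 was at 2253 and 1344 FPKM (-0.75). The list thus ran from a 4-fold or larger deficit in 9 of its 15 genes to no deficit for Vim.

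The matrix genes themselves were uneven. Among 25 kept collagen genes (29 listed), 13 were at least 2-fold lower and 2 at least 2-fold higher, with a median of -1.39. The largest differences were in collagen VI, which forms beaded filaments around cells, and they differed between its chains: Col6a3 was at 488 and 7.35 FPKM (-5.87), Col6a2 at 367 and 13.2 FPKM (-4.70) and Col6a1 at 417 and 130.4 FPKM (-1.67). Col18a1, whose end fragment is endostatin, was at 228 and 13.3 FPKM (-4.00). The fibril collagens were the most abundant: Col1a1 was at 3453 and 798 FPKM (-2.11), Col1a2 at 1738 and 662 FPKM (-1.39) and Col3a1 at 1175 and 339.6 FPKM (-1.79). Collagen IV, the collagen of basement membranes, did not follow. Col4a1 was at 371 and 384 FPKM (0.05), and Col4a6 was at 0.534 and 7.46 FPKM (2.46).

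Non-collagen matrix genes had 18 of 37 kept members (39 listed) at least 2-fold lower and 2 at least 2-fold higher, with a median of -0.93. Mfap2, a microfibril protein, was at 180.5 and 5.76 FPKM (-4.75). Spp1, osteopontin, was at 985 and 85.8 FPKM (-3.50). Bgn, the proteoglycan biglycan, was at 2983 and 449.7 FPKM (-2.73), and Tnc, tenascin C, at 2399 and 425 FPKM (-2.50). Fibronectin, Fn1, was at 1124 and 477 FPKM (-1.23). In the other direction, Fbn2, a fibrillin of embryonic microfibrils, was at 7.81 and 26.5 FPKM (1.64) and Prelp at 0.0133 and 2.51 FPKM (1.79). Taking collagens and other matrix genes together, the share of the summed FPKM was 3.72% in D0 and 1.52% in D3.

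Of 19 enzymes and chaperones that process collagen, 8 were at least 2-fold lower and 3 at least 2-fold higher, with a median of -0.96. Adamts2, which removes the amino end of procollagen, was at 23.8 and 1.82 FPKM (-3.14), Loxl3, a lysyl oxidase-like crosslinking enzyme, at 118 and 18.1 FPKM (-2.64) and Bmp1, which removes the carboxyl end, at 336 and 93.0 FPKM (-1.84). Serpinh1, the collagen chaperone HSP47, was at 1637 and 712 FPKM (-1.20). Pcolce, an enhancer of procollagen cutting, was at 1106 and 479 FPKM (-1.21), whereas its relative Pcolce2 was at 8.37 and 92.5 FPKM (3.32). These paralogs thus differed in opposite directions.

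Among metalloproteinases and their inhibitors, 12 of 18 kept genes were at least 2-fold lower and 2 at least 2-fold higher, with a median of -1.27. Mmp3, stromelysin 1 (chromosome 9, 7445822 to 7455972), had the second-largest negative difference of all genes, at 624 FPKM in D0 and 9.25 FPKM in D3 (-5.93). Mmp2 was at 688 and 71.2 FPKM (-3.26), Mmp14, a membrane-bound activator of MMP2, at 777 and 156 FPKM (-2.30) and Mmp10 at 95.4 and 7.85 FPKM (-3.44). The inhibitor Timp1 was at 1596 and 683 FPKM (-1.22), and Timp3 was at 12.4 and 55.3 FPKM (2.07). Adamts5, an aggrecanase, was at 0.568 and 7.16 FPKM (2.38).

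Mesenchymal transcription factors had 11 of 31 kept members (34 in the table) at least 2-fold lower and 1 at least 2-fold higher, with a median of -0.78. The factors known to drive epithelial-to-mesenchymal transition were unlike each other: Snai1 was at 57.5 and 14.4 FPKM (-1.93) and Zeb1 at 13.6 and 6.00 FPKM (-1.06), while Twist1 was at 39.8 and 39.0 FPKM (-0.03). Osr2 was at 15.0 and 0.886 FPKM (-3.08), and Foxd1 at 0.258 and 7.86 FPKM (2.82).

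The contractile cytoskeleton stood apart from the matrix. Of 21 kept genes, 1 was at least 2-fold lower, Pdlim7 at 221 and 83.6 FPKM (-1.39), and 1 at least 2-fold higher, Lmod1 at 1.85 and 7.06 FPKM, with a median of -0.35. Smooth muscle actin, Acta2, was at 675 and 575 FPKM, Tagln (transgelin) at 974 and 652 FPKM and the tropomyosin gene Tpm1 at 1667 and 987 FPKM. For 18 of the 21 genes D3 was above both day 6 fractions, against 28.2% of all kept genes. On day 6, Acta2 was at 14.2 FPKM in the T- and 166 FPKM in the T+ fraction, and Tagln at 10.4 and 208 FPKM. Of 13 kept integrins, 1 was at least 2-fold lower, Itgb3 at 32.7 and 10.2 FPKM (-1.60), and 1 at least 2-fold higher, Itgb4, the integrin chain of hemidesmosomes in epithelia, at 1.53 and 27.9 FPKM (3.51). Itgb1 was at 209.6 and 149 FPKM (-0.49).

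Skeletal muscle markers were measured in the D0 fibroblasts and were lower in D3, with 12 of 14 kept genes at least 2-fold lower and a median of -1.97. Mylpf, a fast muscle myosin light chain, was at 182 and 41.3 FPKM (-2.11), Tnnc2, a fast muscle troponin, at 47.4 and 6.05 FPKM (-2.78) and Myog, a muscle transcription factor, at 24.2 and 7.51 FPKM (-1.57). The summed FPKM of these markers was 763 in D0 and 259 in D3, while Pax7, which marks muscle stem cells, was at 0.0998 and 0.193 FPKM. The part of muscle cells in the differences of other lists was not tested.

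Of 10 kept neural markers (17 listed), 6 were higher and 2 lower by 2-fold or more, with a median of 1.30, and their summed FPKM was 167 in D0 and 421 in D3. A gene low in D0 could pass only through D3. With a minimum of 5 FPKM in either library the median was 0.73, but this minimum selects in the same way and is no check on the filter. Stmn2, a microtubule regulator of neurons, was at 4.53 and 125 FPKM (4.51), Tubb3, the neuronal beta-tubulin, at 14.8 and 133 FPKM (3.08) and Nefl, the light neurofilament, at 21.6 and 75.9 FPKM (1.76), while Nefm, the medium neurofilament, was at 30.2 and 11.8 FPKM (-1.29). The defining genes Pax6, Elavl3 and Dcx were under 0.05 FPKM or listed at 0 in both libraries. Of 14 endothelial markers 6 passed, with Cdh5, the cadherin of endothelium, at 11.8 and 1.53 FPKM (-2.34) and Tek, an angiopoietin receptor, at 0.0624 and 7.54 FPKM (3.01). Pecam1 was at 0.296 and 0.247 FPKM, and the summed FPKM of the endothelial list was 66.6 in D0 and 45.5 in D3. The part of such cells in the other results was not tested.

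**Figure D2:**
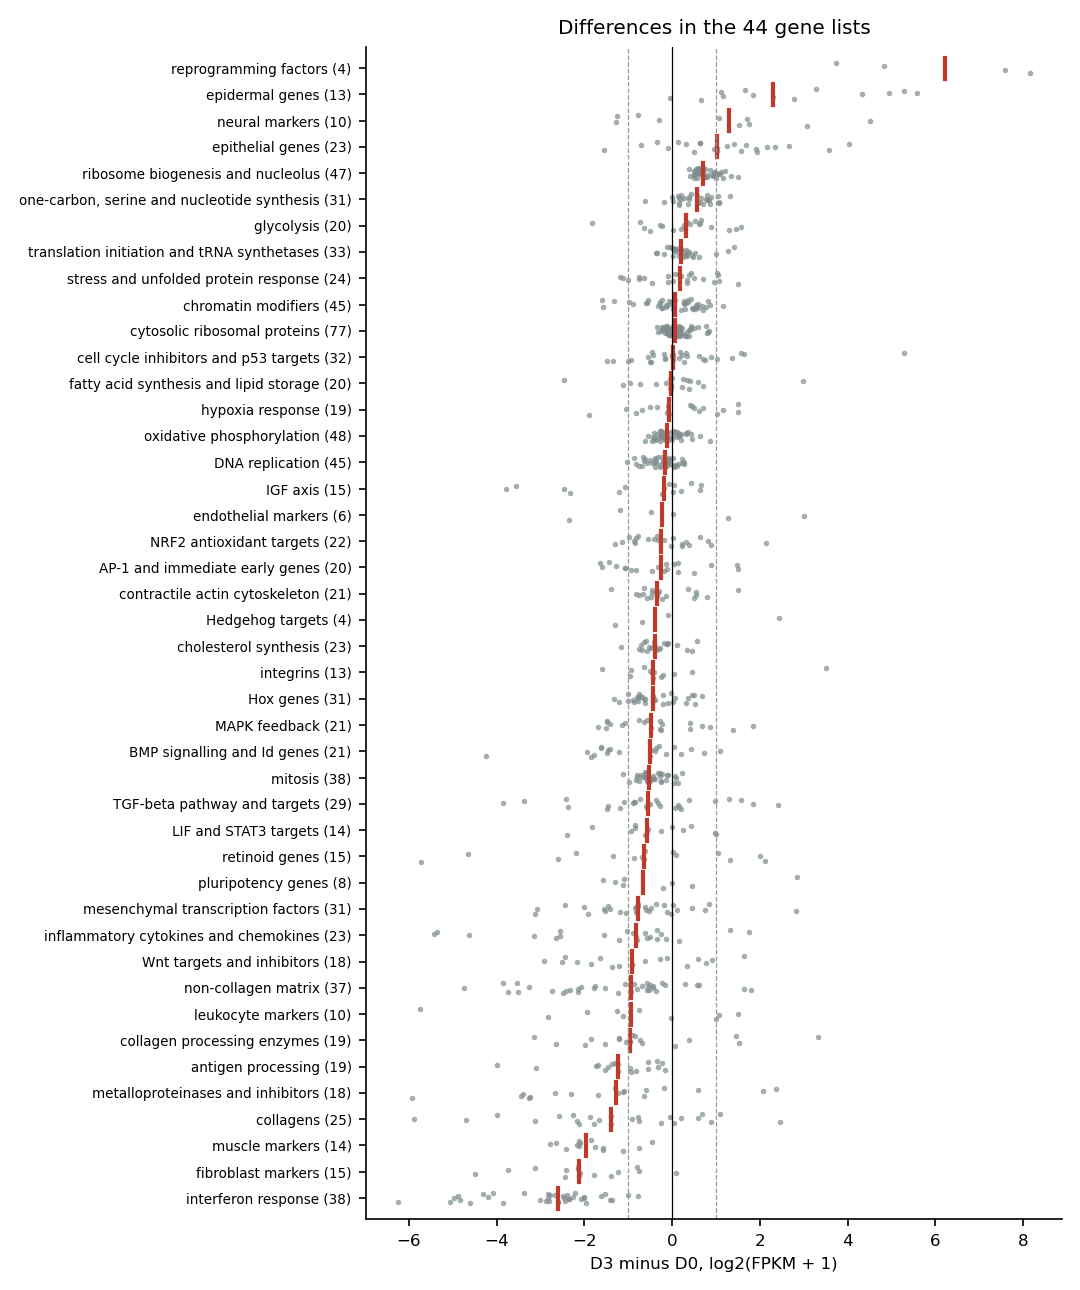
Difference of each list member, D3 minus D0 on the log2(FPKM + 1) scale, for the 44 gene lists. Points are kept genes, red bars list medians, numbers in parentheses the genes plotted, the solid line 0 and the dashed lines 2-fold. Lists are ordered by median, from -2.60 for the interferon response to 6.21 for the 4 factors. Scaling to the same total FPKM moves the median of all genes by 0.25 and turns the sign of the medians of DNA replication, hypoxia response, oxidative phosphorylation, fatty acid synthesis, NRF2 targets, AP-1 genes and the IGF axis.

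Epithelial genes were then examined as the counterpart of the fibroblast programme. Of 41 listed genes, 23 passed the filter, and 13 of these were higher and 1 lower by 2-fold or more, with a median of 1.02. Since a gene under 1 FPKM in D0 could pass only through D3, the 23 are not a neutral sample of the list. Dsp, desmoplakin of the desmosome (chromosome 13, 38243197 to 38290446), was at 0.929 FPKM in D0 and 30.4 FPKM in D3 (4.02). Krt19, a keratin of simple epithelia, was at 3.39 and 51.0 FPKM (3.57). St14, the epithelial protease matriptase, was at 0.686 and 9.77 FPKM (2.67). Esrp2, which sets epithelial splicing, was at 0.563 and 6.95 FPKM (2.35). Levels of the adhesion genes stayed low. Cdh1, E-cadherin, was at 0.15 and 3.41 FPKM (1.94) and Epcam at 0.528 and 1.17 FPKM (0.51), against 203 and 79.3 FPKM in iPSCs. The keratin partners Krt8 and Krt18, which pair in the same filament, were at 4.22 and 14.5 FPKM (1.57) and at 56.5 and 18.6 FPKM (-1.55). A further 18 genes of the list were under 1 FPKM in both libraries, among them Grhl2, Ovol1, Ovol2, Cldn7 and Esrp1, with Grhl1 the highest at 0.721 FPKM in D3.

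Genes of stratified epidermis, the outer layer of the skin, had 11 of 13 kept members (21 in the table) higher and 0 lower by 2-fold or more, with a median of 2.30. The other 8 were under 1 FPKM in both libraries, and a gene low in D0 could pass only through D3, so the filter set part of this count and median. Adh7, an alcohol dehydrogenase of surface epithelia, was at 1.33 FPKM in D0 and 110.3 FPKM in D3 (5.58). Perp, a p53 target and desmosome component, was at 2.28 and 126 FPKM (5.28), with intervals that did not overlap. Aldh3a1, an aldehyde dehydrogenase known from cornea, was at 3.31 and 133 FPKM (4.95). Slurp1 was listed at 0 in D0 and was at 19 FPKM in D3. Krtdap was at 0.155 and 10.2 FPKM (3.28). The late envelope genes Ivl and Sprr1a were already present in D0, at 6.70 and 42.4 FPKM, and were at 6.51 and 68.1 FPKM in D3. In iPSCs the same genes were low, with Adh7 at 0.152 FPKM, Aldh3a1 at 0.436 FPKM and Slurp1 listed at 0. For 7 of the 13 epidermal genes D3 was below both day 6 fractions, against 27.8% of all kept genes, for example Aldh3a1, at 561 FPKM in the T- and 398 FPKM in the T+ fraction.

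The pluripotency genes were mostly under the filter. Of 37 genes in the table other than the induced factors, 29 were under 1 FPKM in both D0 and D3. Nanog was at 0.0889 FPKM in D0 and 0.119 FPKM in D3, Zfp42 at 0.0834 and 0.0558 FPKM and Esrrb at 0.215 and 0.22 FPKM, and Dppa3 was listed at 0 in both. The highest of these 29 was Dnmt3b, a DNA methyltransferase, at 0.966 FPKM in D3. Of the 8 that passed, L1td1, an RNA-binding protein of pluripotent cells, was at 0.0984 and 6.91 FPKM (2.85), with 42.4 FPKM later in D6T- and 121 in iPSCs. In the other direction, 4 of the 8 were at least 2-fold lower, namely Dnmt3l at 4.36 and 0.795 FPKM (-1.58), Tbx3 at 14.4 and 5.29 FPKM (-1.29), Klf2 at 12.7 and 5.35 FPKM (-1.11) and Lefty1 at 3.41 and 1.08 FPKM (-1.09). A gene under 1 FPKM in D3 could pass only through D0, as Dnmt3l did, so the filter set part of this count. The list median was -0.65, and it was -0.07 under scaling to the same total FPKM and -0.14 under the median of ratios.

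The growth machinery was higher by a smaller and far more even amount. All 47 measured genes of ribosome biogenesis and the nucleolus were higher in D3, with a median of 0.70 and a range of 0.38 to 1.49, and 9 of the 47 were at least 2-fold higher. Npm1, nucleophosmin of the nucleolus, was at 129 FPKM in D0 and 289.6 FPKM in D3 (1.16). Ncl, nucleolin, was at 69.6 and 141 FPKM (1.01). Dkc1, the pseudouridine synthase of snoRNPs, was at 6.65 and 18.4 FPKM (1.35) and its partner Nop10 at 14.4 and 42.3 FPKM (1.49). Polr1b, a subunit of RNA polymerase I, was at 9.34 and 21.6 FPKM (1.13). Mybbp1a, at 125 and 245 FPKM (0.97), and Nhp2, at 133 and 226 FPKM (0.76), were among the most abundant. The list made up 0.291% of the summed FPKM in D0 and 0.599% in D3. Of these 47 genes 0 were lower in D3 than in both day 6 fractions, against 27.8% of all kept genes. D3 was above both fractions for 11 of the 47 (23.4%), against 28.2% of all kept genes, and for the others it did not lie outside the 2 fractions.

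The 77 cytosolic ribosomal protein genes, the product side of the same process, were flat in comparison, with a median of 0.06 and 0 genes past 2-fold in either direction. Their summed FPKM was 99298.5 in D0 and 100960 in D3. As the total over all genes was lower in D3, their share of it was 15.3% in D0 and 18.8% in D3. Of 33 translation initiation factors and tRNA synthetases, 2 were higher and 0 lower by 2-fold or more, with a median of 0.21. The 2 were the synthetases Wars, at 38.0 and 103 FPKM (1.41), and Iars, at 25.3 and 62.7 FPKM (1.28), whereas Aars was at 153 and 118 FPKM (-0.37).

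Enzymes of one-carbon, serine and nucleotide synthesis, which feed DNA and RNA synthesis, were above 0 in 29 of 31 kept genes, with a median of 0.58, and 4 were at least 2-fold higher. Prps1, which makes the ribose precursor of nucleotides, was at 4.20 and 11.9 FPKM (1.31), Gldc, the glycine decarboxylase, at 1.45 and 4.17 FPKM (1.08) and Mthfd1, a folate enzyme, at 36.7 and 78.3 FPKM (1.07). Srm, spermidine synthase and the most abundant member in both libraries, was at 189 and 282 FPKM (0.58). Tyms, thymidylate synthase, which is also on the DNA replication list, was 1 of the 2 members below 0, at 13.3 and 8.25 FPKM (-0.63).

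Mitosis and DNA replication genes had lower medians than the growth genes. Mitosis genes were below 0 in 33 of 38, with a median of -0.52, which became -0.27 under scaling to the same total. Of the 38, 1 was at least 2-fold lower, against 10.3% of all kept genes: Pttg1, securin, at 60.5 and 27.3 FPKM (-1.12). Ccnb2, cyclin B2, was at 59.1 and 29.5 FPKM (-0.98), Plk1, a mitotic kinase, at 85.5 and 48.0 FPKM (-0.82) and Mki67, the gene of the Ki-67 antigen, at 13.2 and 12.2 FPKM (-0.10). DNA replication genes had a median of -0.16 over 45 genes, which became 0.07 under scaling to the same total, and 1 gene was at least 2-fold lower, Rfc2 at 96.0 and 46.6 FPKM (-1.03). D3 was below both day 6 fractions for 19 of the 38 mitosis genes and 21 of the 45 replication genes, against 27.8% of all kept genes.

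Of 32 cell cycle inhibitors, cyclins and p53 targets, 5 were higher and 2 lower by 2-fold or more, with a median of 0.02. The INK4 inhibitors of CDK4 and CDK6 were on the low side, with Cdkn2c at 19.8 and 6.46 FPKM (-1.48), Cdkn2b at 106 and 40.8 FPKM (-1.35) and Cdkn2a at 289 and 145 FPKM (-0.99). Cdkn1a (p21), the best known p53 target, was at 626 and 751 FPKM (0.26), and Trp53 itself at 170.3 and 172 FPKM (0.02). Besides Perp, the p53 targets and related genes with the largest differences were Gdf15, a stress-induced growth factor, at 11.8 and 39.0 FPKM (1.64) and Rb1, the retinoblastoma gene, at 1.07 and 5.17 FPKM (1.57).

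Metabolic lists were near 0 as wholes and differed within. Glycolysis had 3 of 20 kept genes at least 2-fold higher and 1 lower, with a median of 0.32. Pfkp, a phosphofructokinase, was at 17.4 and 53.2 FPKM (1.56), Hk2, a hexokinase, at 8.18 and 24.3 FPKM (1.46) and Eno2 at 16.1 and 3.84 FPKM (-1.82), while the abundant Ldha was at 687 and 874 FPKM (0.35) and Aldoa at 1259 and 1077 FPKM (-0.22). The hypoxia list had a median of -0.07, which turned to 0.18 under the same total and 0.05 under the median of ratios. Vegfa, the vascular growth factor, was at 53.7 and 13.7 FPKM (-1.90) and Stc2 at 2.54 and 9.07 FPKM (1.51). No oxidative phosphorylation gene of 48 passed 2-fold, and the median of -0.12 turned to 0.14 and 0.01 under the same scalings. Of 23 cholesterol synthesis genes, 19 were below 0 with a median of -0.40, 1 was at least 2-fold lower (Tm7sf2, at 20.8 and 8.70 FPKM, -1.17), and 17 were lower in D3 than in both day 6 fractions, against 27.8% of all kept genes.

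Fatty acid and lipid storage genes had a median of -0.02, which became 0.24 under the same total and 0.11 under the median of ratios, but held a pair of large differences around lipoprotein lipase. Lpl, the lipase itself, was at 2.51 and 26.6 FPKM (2.98), and Angptl4, its secreted inhibitor, was at 1028 and 186 FPKM (-2.46). NRF2 antioxidant targets had a median of -0.25 (0.17 under the same total), with 1 of 22 at least 2-fold higher, Gsta4 at 22.3 and 102 FPKM (2.15), and 2 lower, among them Srxn1 at 166 and 67.3 FPKM (-1.29). The stress list had a median of 0.18 over 24 genes. Folding enzymes of the endoplasmic reticulum were on its low side, with Pdia6 at 402 and 176 FPKM (-1.19) and Pdia4 at 229 and 105 FPKM (-1.11). Chaperones of the cytosol and mitochondria were on its high side, with Hsp90aa1 at 94.0 and 196 FPKM (1.05) and Hspd1 at 72.2 and 147 FPKM (1.01).

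FF medium, which is among the media given for reprogramming, holds agents that act on known pathways, and genes of these pathways were listed. Whether D3 was grown in this medium is not stated, and the part of its agents in the differences was not tested. CHIR99021 inhibits GSK3, and this inhibition is known to stabilise beta-catenin. Of 18 kept Wnt targets, inhibitors and ligands on the list, which does not hold Wnt16, 8 were at least 2-fold lower and 1 at least 2-fold higher, with a median of -0.92. Axin2, a direct beta-catenin target, was at 5.04 and 1.34 FPKM (-1.37), Wnt5a at 95.5 and 16.9 FPKM (-2.43), the inhibitor Sfrp2 at 15.3 and 1.16 FPKM (-2.92) and the ligand Wnt2 at 0.21 and 2.78 FPKM (1.64). bFGF acts through MAPK, whose feedback genes had 7 of 21 members at least 2-fold lower and 2 higher, with a median of -0.48. Dusp6, a phosphatase of ERK, was at 72.2 and 24.9 FPKM (-1.5), Spry2 at 60.3 and 22.1 FPKM (-1.41) and Etv4 at 85.6 and 30.2 FPKM (-1.47), whereas Dusp14 was at 42.6 and 156 FPKM (1.85) and Dusp1 at 25.9 and 69.5 FPKM (1.39). LIF acts through STAT3. Of 14 kept LIF and STAT3 genes, 2 were at least 2-fold lower, Bcl3 at 38.1 and 6.38 FPKM (-2.40) and Cebpb at 71.0 and 19.3 FPKM (-1.82), and 0 at least 2-fold higher, with a median of -0.56.

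AP-1 and immediate early genes had 6 of 20 members at least 2-fold lower and 2 higher, with a median of -0.26 (0.01 under the same total). Ier3 was at 412 and 170.5 FPKM (-1.27) and Batf at 2.39 and 0.0818 FPKM (-1.65), while Atf3 was at 2.11 and 7.89 FPKM (1.51) and Mafk at 12.8 and 37.6 FPKM (1.48).

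In the TGF-beta pathway, 8 of 29 genes were at least 2-fold lower and 4 at least 2-fold higher, with a median of -0.56. Ligand and receptor genes were found on both sides. Among the lower ones were Inhbb, an activin subunit, at 117 and 10.3 FPKM (-3.38), Tgfb1 at 72.5 and 25.2 FPKM (-1.49) and Tgfbr2 at 129.7 and 56.5 FPKM (-1.18). Inhba, another activin subunit, was at 37.0 and 74.1 FPKM (0.98), and Fst, which binds activin, at 10.7 and 34.0 FPKM (1.57). Among known targets the directions split. Tgfbi was at 31.3 and 1.25 FPKM (-3.84) and Pmepa1 at 80.9 and 14.4 FPKM (-2.41), but Ctgf, a matricellular growth factor, was at 31.3 and 115 FPKM (1.85). Of 21 kept BMP and Id genes, 10 were at least 2-fold lower and 1 at least 2-fold higher, with a median of -0.50. The ligand Bmp2 was at 26.4 and 0.449 FPKM (-4.24), with intervals apart, and the target genes Id3, Id1 and Id2 were at 180.1 and 46.1 FPKM (-1.94), 84.8 and 29.6 FPKM (-1.49) and 26.5 and 10.9 FPKM (-1.20).

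**Figure D3:**
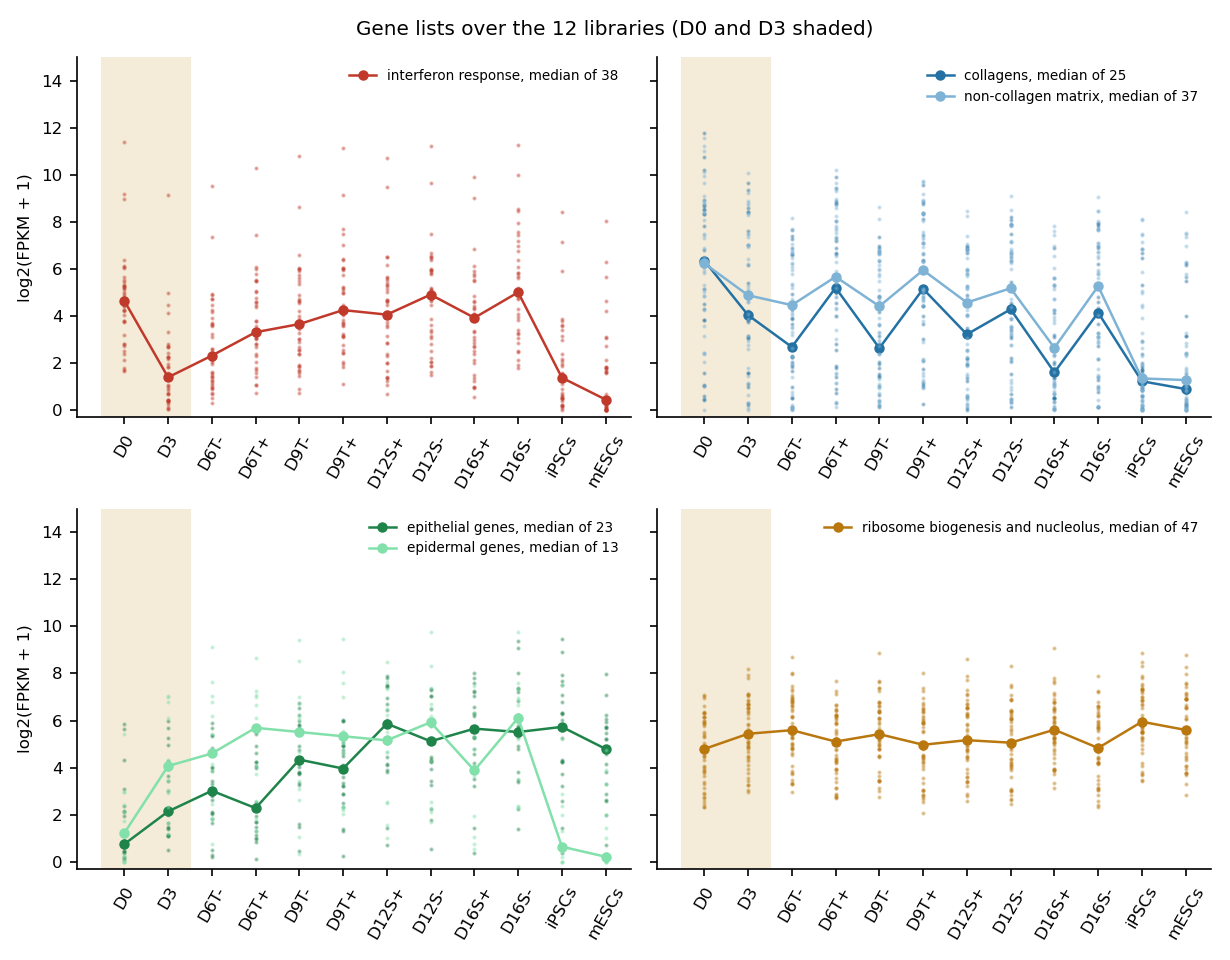
Levels of the list members in all 12 libraries, as log2(FPKM + 1), for interferon response, matrix, epithelial and epidermal, and ribosome biogenesis genes. Small points are genes and joined large points list medians, with 1 library per position; D0 and D3 are shaded. The interferon median goes from 4.65 in D0 to 1.4 in D3, the collagen median from 6.35 to 4.04, the epidermal median from 1.22 to 4.07 and the ribosome biogenesis median from 4.79 to 5.44.

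Outside the lists, the genes with the largest differences were read one by one, leaving out loci under 300 bases and the 4 factors. Among the 20 genes with the largest positive differences, Snord35b, Cnfn and Snora68 were listed at 0 in D0, and the others ran from 6.75 for Hbb-y to 4.73 for Tmem35. Hbb-y encodes an embryonic beta-globin (chromosome 7, 111000259 to 111001754) and had 0.0996 FPKM in D0 but 117 in D3, followed by 305 in D6T- and 72.1 in D6T+. Crym, a thyroid hormone-binding crystallin, was at 1.46 and 156 FPKM (5.99). Nppb, the natriuretic peptide BNP, was at 0.441 and 80.6 FPKM (5.82), and Anxa8, an annexin, was at 5.42 and 288 FPKM (5.50). Podxl, a sialomucin of the cell surface, was at 0.379 and 51.6 FPKM (5.25), and its highest value in the series was 255 FPKM in D16S-. Wnt16, a Wnt ligand, was at 0.273 and 36.4 FPKM, Nat8l, which makes N-acetylaspartate, at 0.193 and 42.3 FPKM, and Scg5, a chaperone of secretory granules, at 0.214 and 41.6 FPKM. For the last 3, D3 was the highest of the 12 libraries, and D16S+ was under 1 FPKM. The small nucleolar RNA genes Snord35b and Snora68 were listed at 0 in D0 and at 121 and 35.6 FPKM in D3. Snord35b was listed at 0 in the other 10 libraries as well, and its D3 interval reached 20268 FPKM. Both RNAs are short and are poorly captured by polyA libraries.

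The 20 largest negative differences held 6 interferon response genes (Isg15, Irf7, Usp18, Rtp4, Oasl2 and Ifit3) and the matrix genes Col6a3, Col6a2 and Mfap2 already described. Others were Crabp1 (chromosome 9, 54612555 to 54620917), whose product binds retinoic acid in the cytosol, at 6195 and 116 FPKM (-5.73), Sema7a, a membrane semaphorin, at 489 and 15.9 FPKM and Lgals3bp, a secreted galectin-binding glycoprotein, at 346 and 9.84 FPKM (-5.00). On day 6, Crabp1 was at 2953 FPKM in the T+ and 206 FPKM in the T- fraction, so the unsorted D3 value lay below both sorted fractions of day 6. The same was true of Isg15 and Col6a3, the latter at 14.2 FPKM (T-) and 97.2 FPKM (T+), but not of Mmp3, at 2.87 and 28.4 FPKM.

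**Figure D4:**
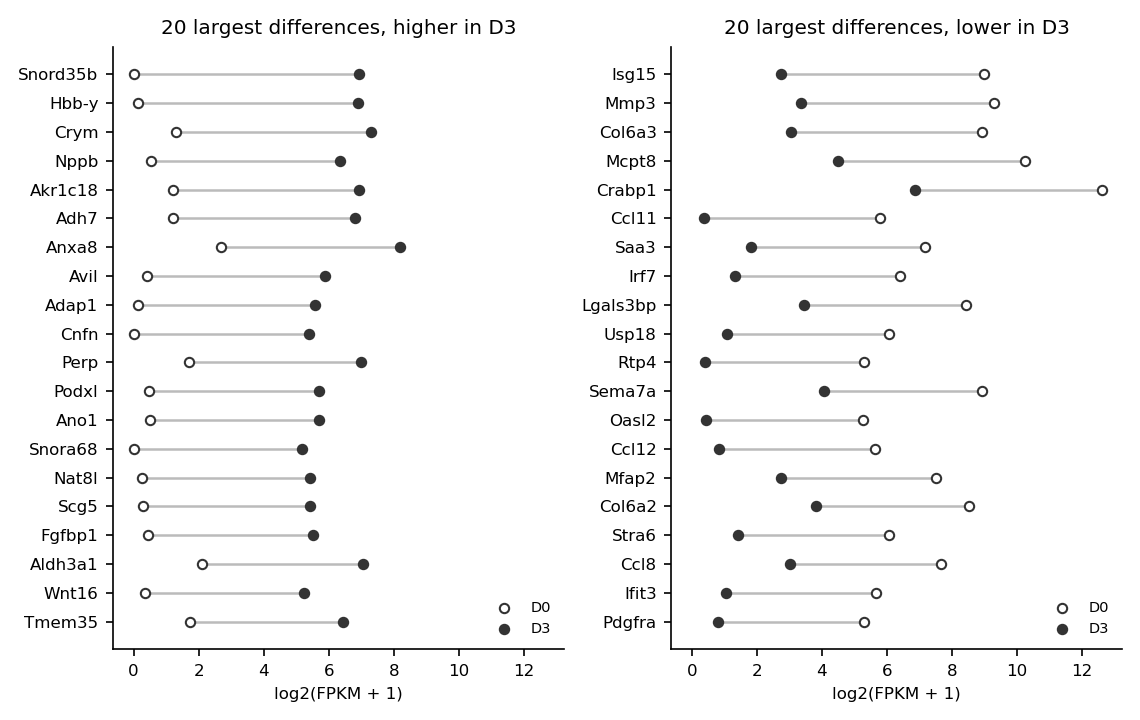
Levels in D0 (open circles) and D3 (filled circles), as log2(FPKM + 1), of the 20 genes with the largest positive and the 20 with the largest negative difference, 1 library each, joined by a grey line. The genes on the left start between 0 and 5.42 FPKM in D0, those on the right between 37.8 and 6195 FPKM.

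Differences of this size were placed along the later libraries, as context. The median level of the 216 genes at least 4-fold higher in D3 was 0.61 in D0 and 3.70 in D3 on the log2(FPKM + 1) scale, then 4.04 in D6T-, 3.09 in D6T+ and 1.42 in iPSCs. In D0 133 of the 216 were under 1 FPKM, and these passed the filter only through D3. In iPSCs 94 of the 216 were under 1 FPKM, a count for which no share over all kept genes was computed. D3 was the highest of the 10 libraries of days 0 to 16 for 75 of them (34.7%), against 10.3% of all kept genes, a share raised by the choice of genes that were high in D3. The 350 genes at least 4-fold lower had a median of 5.06 in D0, 2.18 in D3, 1.95 in D6T-, 3.76 in D6T+ and 1.30 in iPSCs. Of the 350, 83 were under 1 FPKM in D3 and passed only through D0. For 128 of these 350 genes D3 was below both day 6 fractions. All kept genes gave 27.8%, and 128 is 36.6% of 350. These libraries share D3 and D0 with the comparison above, so they describe the same values from another side.

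Among all pairs of the 12 libraries, D0 and D3 ranked 23 of 66 by the number of genes at least 2-fold apart, from the fewest. D3 was nearer to D6T+, with 985 such genes, than to D6T-, with 1500, and D0 was at 2045 from D3 and 1308 from D6T+.

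How firmly a single gene can be read is limited. Among genes of at least 10 FPKM, the interval deposited with each FPKM had a median half-width of 99.6% of the value in D0 and 100.1% in D3. For 13 genes in D0 and 11 in D3 the FPKM lay outside its own interval, so what the intervals cover is uncertain. The intervals of D0 and D3 lay apart for 12 genes with higher and 7 with lower values in D3, all of them among the 566 genes at least 4-fold apart. The 7 were Isg15, Usp18, Oasl2, Pdgfra, Bmp2, Tnc and Col1a1. For Tnc and Col1a1 this came from D0 intervals far narrower than those of other genes, 2392 to 2407 FPKM for Tnc and 3442 to 3465 FPKM for Col1a1. The 12 were Crym, Akr1c18, Hbb-y, Perp, Podxl, Adap1, Avil, Nat8l, Sox21, Gna14, Miat and Gucy2e, of which the last 4 were named after their values were seen. The neural transcription factor Sox21 was at 0.0753 FPKM in D0 and 26.4 FPKM in D3, and the non-coding RNA Miat at 0.192 and 18.5 FPKM. At the edge of the filter, 151 genes had a larger value of 1 to 1.1 FPKM and 157 of 0.9 to 1 FPKM, with Gfra2 (1.0007 and 0.377 FPKM) just inside and Col25a1 (0.99992 and 0.405 FPKM) just outside.

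The difference also moved with base composition. Over the 10922 kept genes with a coding transcript in the annotation, cut in 10 groups of GC content, the median difference went from 0.20 in the group with the least GC to -0.35 in the group with the most. The share of genes at least 2-fold lower went from 2.93% to 18.9%, while the share at least 2-fold higher stayed between 5.58% and 8.52%. Lists differ in GC: the median GC content was 56.4% for collagens, 49.5% for interferon response genes and 51.0% for ribosome biogenesis genes, against 51.0% for all genes. With the median of each GC group removed, the list medians were -1.18 for collagens, -2.59 for the interferon response, 2.44 for epidermal genes and 0.75 for ribosome biogenesis genes. What part base composition has in the remaining differences was not tested.

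**Figure D5:**
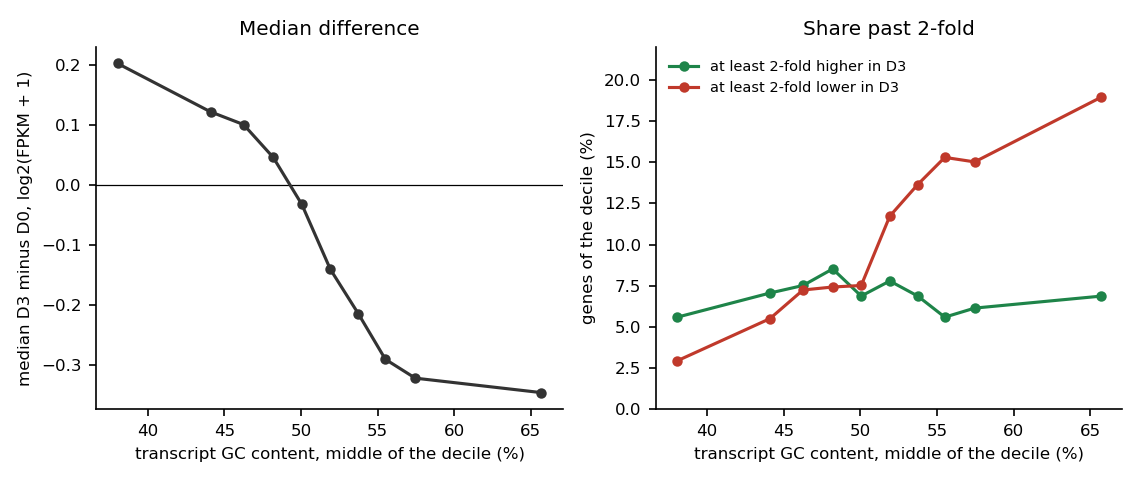
Difference between D3 and D0 by GC content of the transcript, in 10 groups of about 1092 genes. Left, the median difference on the log2(FPKM + 1) scale, from 0.20 to -0.35; right, the percentage of genes at least 2-fold higher (green, 5.58% to 8.52%) and at least 2-fold lower (red, 2.93% to 18.9%) in D3.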

How the data were processed

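PolyA RNA of 12 mouse samples was sequenced as TruSeq libraries. The authors aligned reads to mm9 with STAR, removed reads with more than 2 mismatches or more than 1 locus, and computed FPKM per gene with cuffdiff. Tool versions and the gene annotation are not given in the sources used here. The deposited table gives FPKM with an interval per library. With 1 library per condition these intervals hold no biological variation. The 12 columns of quantification status were not used.

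Each sample was grouped by its title. The difference between D3 and D0 was computed as log2(FPKM + 1), with a pseudocount of 1, over genes with at least 1 FPKM in either library, and no p-value was computed. The scripts were tested on simulated data. The named genes were the members of 44 gene lists and the 20 largest differences in each direction among loci of at least 300 bases, leaving out the 4 induced factors. Within a list, values were given as a rule for up to 8 members, mainly those with the largest differences and those with the highest FPKM. The interferon list had more, because of the promoter examples. Some members with small differences, such as Trim25, Twist1, Epcam and Mki67, were also given. Other genes were added where the text gives the marker that defines a cell type. The comparison, members and lists were chosen with earlier results of these data known. A few list members are not reported here.

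Positions came from the GENCODE M1 annotation of mm9, in which 1188 of 1202 list genes overlapped 1 gene of the same name. GC content was that of the longest coding transcript. Promoter sequences came from RefSeq on GRCm38.p6, another build, and were matched by symbol. Alternatives were a pseudocount of 0.1, a minimum of 5 FPKM, no minimum, scaling to the same total or by the median of ratios, leaving out short loci and, added after seeing the data, removal of the median of each GC group. Python 3.11.15, numpy 2.4.6, pandas 2.3.3 and matplotlib 3.10.9 were used.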

Additional observations from a re-analysis of the deposited data

How the results depend on the processing

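Each condition had 1 library, so no difference could be set against a spread between replicates. No paired analysis was possible because each condition had 1 library and no result came from a test. Of 201 planned recomputations of counts and list medians, 176 kept their direction and stayed within 1.5-fold of the reported value, 13 moved further and 12 turned in sign. Of 48 added ones with the median of each GC group removed, 47 stayed and 1 turned. No median of the 19 lists at or above 1.5-fold turned in sign under any alternative. Most alternatives could hardly have turned one. Another pseudocount leaves the direction of each gene as it is. The scalings moved the median of all genes by 0.13 and 0.25, and GC group medians lay between 0.20 and -0.35, all short of 1.5-fold. Likewise, the 4 counts without a minimum were fixed in advance, since a gene under 1 FPKM in both libraries cannot reach 2-fold. Scaling to the same total FPKM gave 1249 genes higher by 2-fold or more, and a minimum of 5 FPKM gave 524, since fewer genes entered. With a pseudocount of 0.1, genes past 4-fold numbered 474 higher and 579 lower, and the medians were 1.97 for epithelial, 4.59 for epidermal, -3.30 for interferon response and -1.52 for Wnt genes. With a minimum of 5 FPKM the medians were 1.93 for epithelial, 3.03 for epidermal, -0.84 for endothelial, -1.75 for Wnt and -1.40 for BMP genes, and lists with under 3 members left had no value. Medians that turned in sign under the same total were 0.0654 for DNA replication, 0.18 for hypoxia, 0.14 for oxidative phosphorylation, 0.24 for fatty acid synthesis, 0.17 for NRF2 targets, 0.00835 for AP-1 genes and 0.0760 for the IGF axis. Under the median of ratios, hypoxia was at 0.0544, oxidative phosphorylation at 0.0143 and fatty acid synthesis at 0.11. With a minimum of 5 FPKM, hypoxia was at 0.41 and chromatin modifiers at -0.0111, and with the GC median removed hypoxia was at 0.16. Apart from the scalings, which shift all genes by construction, the cause was not tested.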

Other observations

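Retinoid genes, which take up, bind and convert retinol and retinoic acid, had 4 of 15 kept members higher and 5 lower by 2-fold or more, with a median of -0.64. Stra6, the receptor through which cells take up retinol, was at 65.8 FPKM in D0 and 1.67 FPKM in D3 (-4.65), Rbp4, the carrier of retinol in blood, at 26.2 and 3.48 FPKM (-2.60) and Dhrs3, which turns retinal back to retinol, at 57.2 and 11.7 FPKM (-2.19). The binding proteins differed in opposite directions, with Crabp1 at 6195 and 116 FPKM (-5.73) but Crabp2 at 51.1 and 225 FPKM (2.11). Aldh1a1, a retinal dehydrogenase, was at 0.463 and 4.83 FPKM (1.99), and Aldh1a2, its relative, at 4.25 and 1.06 FPKM (-1.35).

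In the IGF axis 6 of 15 genes were lower by 2-fold or more and 0 higher, with a median of -0.19 that became 0.08 when both libraries were scaled to the same total. The imprinted pair Igf2, a fetal growth factor, and H19, a non-coding RNA from the same locus, stood at 83.5 and 15.9 FPKM (-2.32) and at 454 and 37.5 FPKM (-3.56). Igfbp5 was at 93.9 and 5.86 FPKM (-3.79) and Igfbp4 at 267 and 47.6 FPKM (-2.46), whereas Igfbp3 was at 61.8 and 96.8 FPKM (0.64). Of 31 kept Hox genes, which hold the positional identity of fibroblasts, 4 were lower by 2-fold or more and 0 higher, with a median of -0.44. Hoxb8 was at 7.07 and 2.23 FPKM (-1.32) and Hoxa11 at 17.1 and 6.86 FPKM (-1.21), and Hoxd3 at 0.765 and 1.82 FPKM (0.67). Hedgehog genes had 4 kept members, with Ptch1, the receptor and a known target, at 1.62 and 13.2 FPKM (2.44) and Gli2, a transcription factor of the pathway, at 8.16 and 2.73 FPKM (-1.29). Among 45 chromatin modifiers 1 was higher and 3 lower by 2-fold or more, with a median of 0.07 (-0.01 with a minimum of 5 FPKM). Kdm3a, a demethylase of histone H3 lysine 9, was at 2.71 and 7.32 FPKM (1.17) and Smarcd3, a subunit of the BAF complex, at 13.4 and 4.72 FPKM (-1.33).

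Some of the genes that were higher in D3 than in D0 had their highest value of the series in D3. Scg5 was at 41.6 FPKM in D3, 15.1 in D6T-, 6.64 in D6T+ and 0.506 in D16S+. Cnfn, a cornified envelope gene listed at 0 in D0, was at 40.7 FPKM in D3, 34.1 in D6T+, 28.5 in D12S-, 6.33 in D16S+ and 37.2 in D16S-, so that several later values were close to that of D3.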
